A study of Mus musculus with 4 samples.

Results

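H3K4me3 and H3K9me3 peaks of lipopolysaccharide-treated macrophages were compared, that is, trimethylation of lysine 4 and of lysine 9 on histone H3. The members were the peaks of the H3K4me3 list and of the H3K9me3 list on chromosomes 1 to 19 and X, and peaks that shared at least 1 bp were joined into a region. This gave 39927 regions, of which 23133 held H3K4me3 only, 5341 held both marks and 11453 held H3K9me3 only. The regions came from 28478 H3K4me3 peaks and 17288 H3K9me3 peaks, out of 96296 peaks in the 4 lists of the series.

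Macrophages came from the peritoneum of 8-week-old C57BL/6 mice, elicited with thioglycollate broth. They were made adherent in culture dishes and then received, for 24 h, lipopolysaccharide (LPS), the bacterial surface component that Toll-like receptor 4 senses. Cells of the same kind given phosphate-buffered saline (PBS) for 24 h served here only to show how often a site was listed again. Chromatin was precipitated with an antibody to H3K4me3 (abcam, ab8580) or to H3K9me3 (abcam, ab8898), with 1 library for each mark and treatment. Whether animals were pooled, and whether the 2 marks were measured on the same culture, the labels do not say. With 1 library per mark no test was possible, and all intervals of shares are exact 95% Clopper-Pearson intervals that cover counting error only. Genes and peaks are not replicates, and medians over them, given with their quartiles, describe these libraries.

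H3K4me3 is laid down by the COMPASS family of methyltransferases at the start of active and poised genes, above all at promoters rich in CpG dinucleotides. H3K9me3 is laid down by enzymes such as SETDB1 and SUV39H1 and is bound by HP1 proteins in silent chromatin, over retroelements, satellite repeats, zinc finger gene clusters, germline genes and the silent allele of imprinted genes. Where both marks are found at 1 position in a population of cells, they may lie on the same nucleosome, on different alleles or in different cells, and peak lists do not separate these. Here both marks at a site means overlapping entries of the lists; binding of an antibody to the other mark, and enrichment that an input library would share, were not tested.

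The H3K4me3 library held 26748289 tags after the caller's filter and the H3K9me3 library 28586946, so depth was similar. The caller's modelled fragment length was not: 149 bp for H3K4me3 and 71 bp for H3K9me3. The part of this in peak widths and summit positions was not tested. Peaks took up 14.0% of the H3K4me3 tags and 1.61% of the H3K9me3 tags, and they covered 35.4 Mb and 5.52 Mb. No input library entered the peak calls, per the file headers, so each peak stands against the local background of its own library. A site that is not listed may still carry the mark below the caller's threshold. The labelled cell type was checked on 11 macrophage markers, of which 10 had an H3K4me3 peak within 1 kb of a gene end, all but the scavenger receptor gene Msr1, where a peak lay inside the gene. Their H3K4me3 tags ranged from 0 to 577 with a median of 241 and summed to 2927. Of the markers of other cells, 2 of 6 T cell genes (summed tags 273), 3 of 6 B cell genes (347), 2 of 6 neutrophil genes (77), 1 of 6 eosinophil and mast cell genes (201) and 2 of 7 mesothelial and fibroblast genes (347) had such a peak. At 0 were, among others, Cd3e, Cd3g, Cd8a, Ms4a1, Cd79b, Mpo, Elane, Epx, Siglecf and Msln. The peaks lay at Cd3d and Cd4, at Cd79a, Pax5 and Ebf1, at S100a8 and Camp, at Kit, and at Wt1 and Col1a1. The highest value of a single gene was 216 tags for T cells, 256 for B cells and 56 for neutrophils. It was 201 for eosinophils and mast cells and 207 for mesothelium and fibroblasts. The part of other cells in the results was not tested.

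Promoter sequences of 8 genes that the results turn on are shown first, since promoters with both marks, with H3K4me3 only and with H3K9me3 only differed in their CpG content. Each is the RefSeq sequence of GRCm38.p6, the build called mm10, from 250 bases before to 50 bases after an annotated start. The letters run 5′ to 3′ on the gene's strand, and capitals mark CpG dinucleotides. The first 4 carried overlapping peaks of both marks within 1 kb of the start, the next 2 H3K4me3 only and the last 2 H3K9me3 only. Igf2r (chr17:12769657-12769956, minus strand) encodes an imprinted receptor that clears insulin-like growth factor 2. Dazl (chr17:50293571-50293870, minus strand) encodes a germ cell RNA-binding protein, and Ddx4 (chr13:112652261-112652560, minus strand) a germ cell RNA helicase. Socs1 (chr16:10785487-10785786, minus strand) encodes an inhibitor of cytokine signalling. Il4ra (chr7:125552021-125552320, plus strand) encodes the interleukin 4 receptor chain and Tnfrsf1a (chr6:125349473-125349772, plus strand) a receptor of tumour necrosis factor. Hic1 (chr11:75168103-75168402, minus strand) encodes a transcriptional repressor and Nnat (chr2:157559828-157560127, plus strand) the imprinted protein neuronatin.
Igf2r: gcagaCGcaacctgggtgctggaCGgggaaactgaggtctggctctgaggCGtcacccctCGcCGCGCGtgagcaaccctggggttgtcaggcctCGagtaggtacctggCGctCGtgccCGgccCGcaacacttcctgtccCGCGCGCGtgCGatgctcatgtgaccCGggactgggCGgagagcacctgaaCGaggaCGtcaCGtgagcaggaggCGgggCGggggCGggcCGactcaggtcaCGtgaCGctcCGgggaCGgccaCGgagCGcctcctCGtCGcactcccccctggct
Dazl: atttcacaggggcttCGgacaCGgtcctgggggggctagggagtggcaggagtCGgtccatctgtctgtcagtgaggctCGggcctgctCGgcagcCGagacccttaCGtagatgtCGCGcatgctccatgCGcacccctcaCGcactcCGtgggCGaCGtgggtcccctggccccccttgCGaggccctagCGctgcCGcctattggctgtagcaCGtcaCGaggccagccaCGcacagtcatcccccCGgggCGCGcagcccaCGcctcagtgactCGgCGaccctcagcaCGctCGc
Ddx4: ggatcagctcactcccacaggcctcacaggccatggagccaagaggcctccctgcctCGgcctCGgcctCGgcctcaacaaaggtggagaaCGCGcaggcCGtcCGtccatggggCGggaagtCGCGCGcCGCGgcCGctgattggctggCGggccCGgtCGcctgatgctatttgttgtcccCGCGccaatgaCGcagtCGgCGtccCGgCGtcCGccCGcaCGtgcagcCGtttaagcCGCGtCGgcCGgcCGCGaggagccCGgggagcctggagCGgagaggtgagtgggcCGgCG
Socs1: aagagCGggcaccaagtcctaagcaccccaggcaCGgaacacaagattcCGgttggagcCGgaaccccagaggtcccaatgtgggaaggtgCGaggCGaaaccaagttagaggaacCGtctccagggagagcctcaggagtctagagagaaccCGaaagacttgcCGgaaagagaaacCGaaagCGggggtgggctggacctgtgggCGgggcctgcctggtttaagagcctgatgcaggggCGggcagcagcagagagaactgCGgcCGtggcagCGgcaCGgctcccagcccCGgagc
Il4ra: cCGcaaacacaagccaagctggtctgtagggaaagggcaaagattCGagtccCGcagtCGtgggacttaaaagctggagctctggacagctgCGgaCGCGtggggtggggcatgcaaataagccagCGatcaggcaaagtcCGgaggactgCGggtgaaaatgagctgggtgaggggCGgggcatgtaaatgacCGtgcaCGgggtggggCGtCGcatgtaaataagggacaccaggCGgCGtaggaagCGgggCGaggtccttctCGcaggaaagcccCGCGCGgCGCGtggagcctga
Tnfrsf1a: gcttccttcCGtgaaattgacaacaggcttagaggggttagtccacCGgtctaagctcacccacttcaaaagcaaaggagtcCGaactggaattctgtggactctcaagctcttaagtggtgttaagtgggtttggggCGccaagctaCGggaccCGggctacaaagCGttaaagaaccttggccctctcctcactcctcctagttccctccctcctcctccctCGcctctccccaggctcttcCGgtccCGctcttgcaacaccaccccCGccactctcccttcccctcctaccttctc
Hic1: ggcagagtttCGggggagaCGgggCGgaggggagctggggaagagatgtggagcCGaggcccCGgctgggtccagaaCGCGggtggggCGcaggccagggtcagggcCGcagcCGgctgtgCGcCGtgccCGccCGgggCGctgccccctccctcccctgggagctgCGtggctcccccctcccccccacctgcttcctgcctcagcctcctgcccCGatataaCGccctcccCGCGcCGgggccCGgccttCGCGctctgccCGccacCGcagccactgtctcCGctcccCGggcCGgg
Nnat: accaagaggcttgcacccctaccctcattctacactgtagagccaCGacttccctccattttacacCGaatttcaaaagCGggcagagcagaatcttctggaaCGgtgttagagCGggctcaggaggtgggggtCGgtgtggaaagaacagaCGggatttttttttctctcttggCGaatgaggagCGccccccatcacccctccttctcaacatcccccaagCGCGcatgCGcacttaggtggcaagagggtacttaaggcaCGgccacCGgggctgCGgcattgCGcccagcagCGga
These windows held 34 CpG dinucleotides at Igf2r, 28 at Dazl, 38 at Ddx4, 18 at Socs1, 25 at Il4ra, 11 at Tnfrsf1a, 29 at Hic1 and 17 at Nnat. A second annotated start of Hic1 had no peak of either mark within 1 kb.

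H3K9me3 peaks of LPS-treated macrophages often lay inside H3K4me3 peaks. Of the H3K4me3 peaks, 5345 (18.8%, 18.3 to 19.2) met an H3K9me3 peak, and of the H3K9me3 peaks, 5835 (33.8%, 33.0 to 34.5) met an H3K4me3 peak. The overlapping H3K9me3 peaks lay wholly within the H3K4me3 peak in 90.2% of cases and had their summit there in 98.5%. A shared H3K4me3 peak held 1 H3K9me3 peak in 91.4% of cases. The shared sequence, 2.28 Mb, was 6.42% of the length of all H3K4me3 peaks and 41.2% of the length of all H3K9me3 peaks. The H3K4me3 list covered 1.90% of the caller's effective genome size and the H3K9me3 list 0.295%.

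The classes differed in width and position. Regions with both marks had a median width of 1335 bp (quartiles 749 and 2044), against 955 bp (637 and 1465) for H3K4me3 only and 242 bp (212 and 295) for H3K9me3 only. These widths come from lists with unlike modelled fragment lengths, given above. The median distance to the nearest end of a protein-coding gene was 300 bp with both marks, 2287 bp with H3K4me3 only and 33471 bp with H3K9me3 only. Within 1 kb of a gene end lay 53.8% of the regions with both marks, 45.7% of those with H3K4me3 only and 3.13% of those with H3K9me3 only. Beyond 50 kb lay 14.6%, 11.7% and 40.5%. Most regions with H3K9me3 only lay between protein-coding genes. Of them, 62.6% were neither within 1 kb of an end of such a gene nor inside one, against 24.0% of those with both marks. A gene of any kind was met by 46.0% of regions with H3K9me3 only and 81.2% of those with both marks. The share of the genome outside protein-coding genes was not computed. An annotated pseudogene was met by 3.05% of regions with H3K9me3 only, 3.13% with both marks and 1.87% with H3K4me3 only. H3K9me3 peaks without H3K4me3 had a median distance of 32147 bp to the nearest H3K4me3 peak, and 3.42% lay within 1 kb of one.

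**Figure D1:**
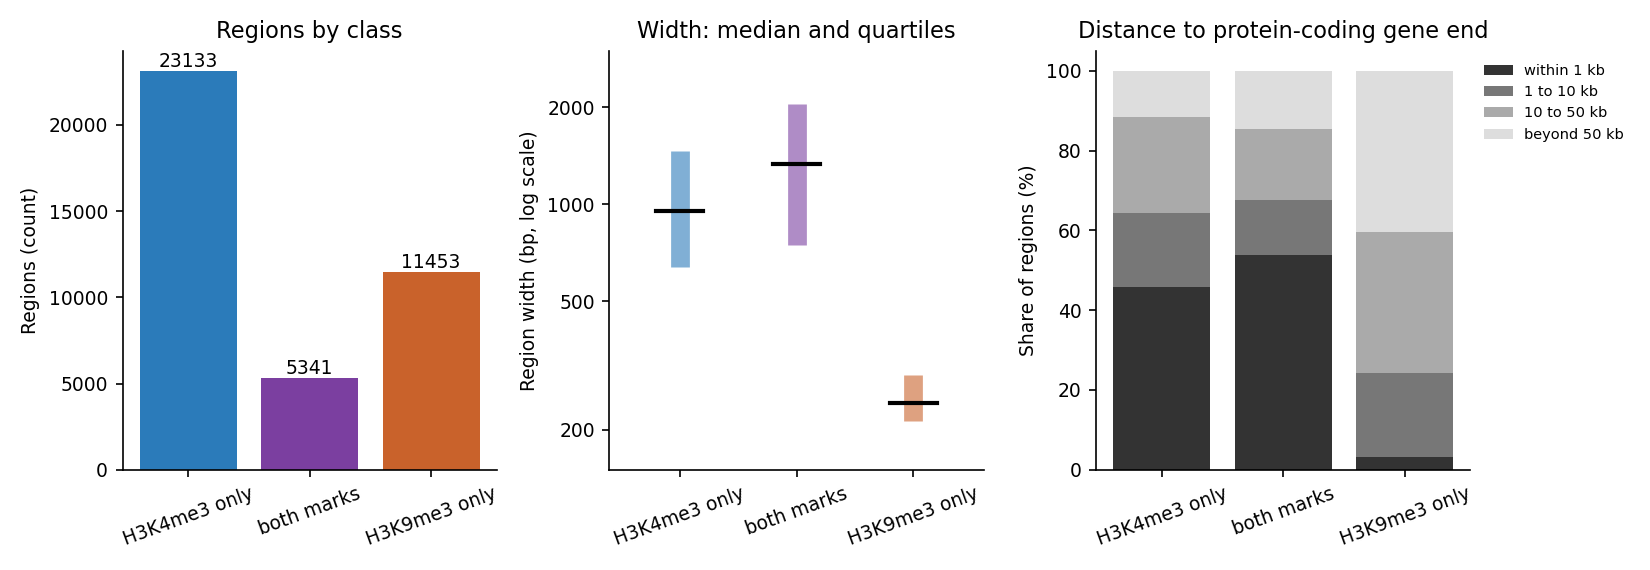
Regions of the LPS libraries by class: number of regions (bars), width in bp on a log scale (coloured bar from lower to upper quartile, black line at the median) and share of regions by distance to the nearest protein-coding gene end in 4 classes. Regions with H3K9me3 only had a median of 242 bp and lay beyond 50 kb in 40.5% of cases, against 1335 bp and 14.6% for regions with both marks.

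The number of tags in a peak, which measures how much of its library fell there, went with sharing, though not in 1 direction throughout. H3K4me3 peaks that met H3K9me3 had a median of 173 tags (quartiles 42 and 319) over 1323 bp, against 71 (35 and 155) over 955 bp for the others. H3K9me3 peaks that met H3K4me3 had a median of 24 tags (17 and 36) over 322 bp, against 16 (14 and 21) over 242 bp. Among H3K4me3 peaks within 1 kb of a gene end the share with H3K9me3 was 10.96% (8.19 to 14.3) at 17 to 29 tags, 5.70% (4.57 to 7.01) at 30 to 59, 6.86% at 60 to 119, 17.3% at 120 to 239, 41.5% (39.8 to 43.1) at 240 to 479 and 51.8% (47.9 to 55.6) at 480 or more. Beyond 1 kb the lowest share was 12.5% (11.3 to 13.8), at 60 to 119 tags. It was 17.0% at 17 to 29 tags and 53.1% (44.6 to 61.4) at 480 or more. At gene ends, the share of H3K9me3 peaks on H3K4me3 moved less with their own tags than it did farther away. It was 85.2% (82.5 to 87.6) at 12 to 15 tags, 93.0% (90.7 to 94.8) at 31 to 50 and 89.6% (77.3 to 96.5) at 101 or more. Away from gene ends it went from 9.11% (8.37 to 9.90) to 73.0% (66.9 to 78.4) at 101 tags or more. Width went with sharing too: at gene ends the share was 6.89% for H3K4me3 peaks of up to 500 bp, 7.84% above that up to 1000 bp, 21.8% up to 2000 bp, 35.9% up to 4000 bp and 37.3% for wider peaks. At 240 to 479 tags and at gene ends, the H3K4me3 peaks of up to 2164 bp, the median width there, met H3K9me3 in 48.0% of cases (45.6 to 50.4) and the wider ones in 34.9% (32.6 to 37.2). At 60 to 119 tags the order was the other way, 5.65% in the narrower and 8.06% in the wider peaks.

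**Figure D2:**
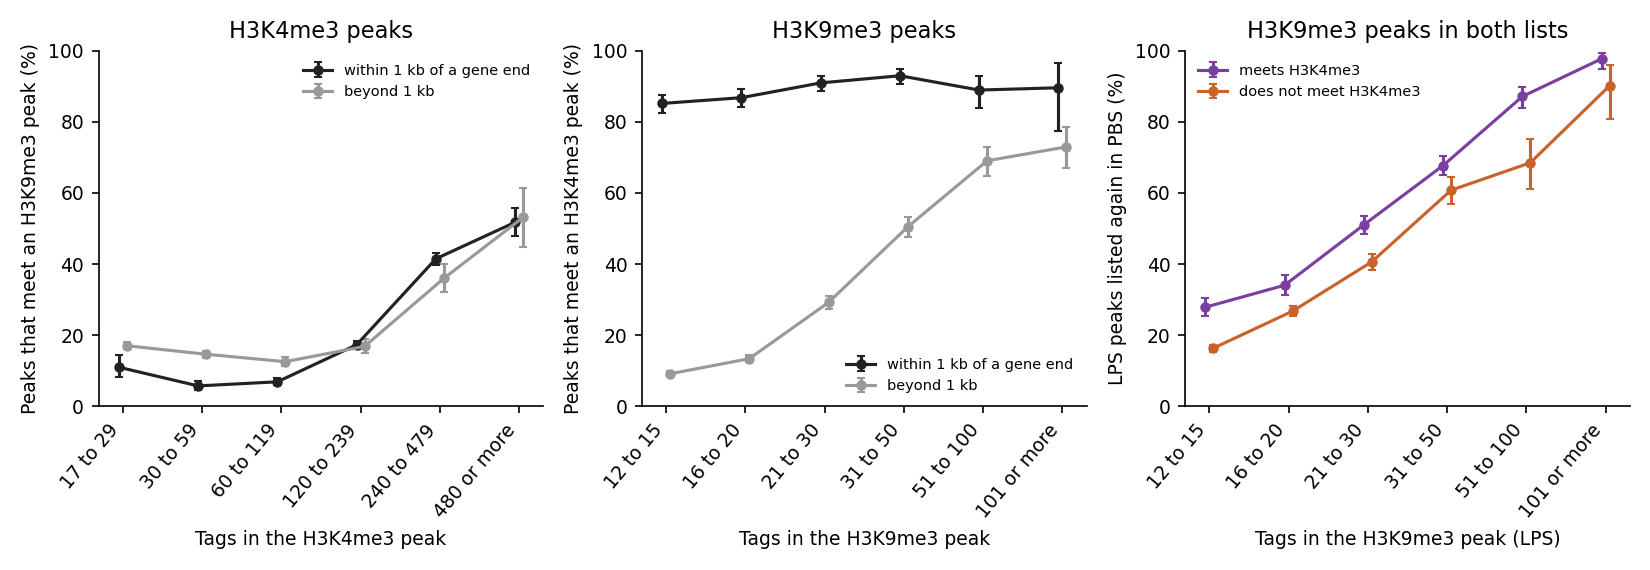
Share of H3K4me3 peaks that met H3K9me3 (left) and of H3K9me3 peaks that met H3K4me3 (middle) by the number of tags in the peak, for peaks within 1 kb of a protein-coding gene end (black) and farther away (grey), and share of LPS H3K9me3 peaks that met a peak of the PBS H3K9me3 list (right). Error bars are exact 95% intervals for counting error; at gene ends 41.5% of H3K4me3 peaks of 240 to 479 tags met H3K9me3, against 5.70% at 30 to 59 tags.

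Sharing also differed between chromosomes. On chromosome X, 8.90% of 584 H3K4me3 peaks and 16.8% of 357 H3K9me3 peaks met the other mark. On the autosomes these shares ranged from 15.5% (chromosome 7) to 24.5% (chromosome 4) of H3K4me3 peaks and from 29.1% (chromosome 14) to 42.6% (chromosome 11) of H3K9me3 peaks. Both values of chromosome X lay below those of all 19 autosomes.

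The PBS lists, which had no part in the classes, named many of the same sites. Of the regions with both marks in LPS, 81.1% met an H3K4me3 peak of the PBS list, 55.6% (54.3 to 57.0) an H3K9me3 peak and 45.0% (43.6 to 46.3) both. Regions with H3K4me3 only met an H3K4me3 peak in 80.0% and an H3K9me3 peak in 5.77%. Regions with H3K9me3 only met an H3K9me3 peak in 27.5% (26.7 to 28.3). Tags bear on this: among H3K9me3 peaks of 12 to 15 tags, 27.8% (25.3 to 30.5) of those on H3K4me3 and 16.3% (15.3 to 17.3) of the others were listed again, and at 101 tags or more 97.7% (94.8 to 99.3) and 90.1% (80.7 to 95.9). In each of the 6 tag classes the H3K9me3 peaks on H3K4me3 were listed again more often. For H3K4me3 peaks the order was the other way at low tags: those on H3K9me3 were listed again in 30.1% (27.0 to 33.2) at 17 to 29 tags, 62.0% at 30 to 59 and 88.8% at 60 to 119, and the others in 38.3% (36.9 to 39.8), 74.2% and 94.2%. From 120 tags upwards both were at 97.7% or more. The culture or immunoprecipitation behind each list was not repeated, so these shares are not a replicate check.

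Among 21627 protein-coding genes, 2899 (13.4%) had overlapping peaks of both marks within 1 kb of a gene end. A further 1134 (5.24%) had such an overlap elsewhere on the gene, 1630 (7.54%) had both marks apart from each other, 8487 (39.2%) had H3K4me3 at a gene end and no H3K9me3 peak, 888 (4.11%) had H3K4me3 only inside the gene, and 478 (2.21%) had H3K9me3 and no H3K4me3 peak on the gene or within 1 kb. No peak was listed for 6111 genes (28.3%). Of the 13458 genes with H3K4me3 at an end, 22.7% (22.0 to 23.4) had an H3K9me3 peak at an end, against 2.19% (1.88 to 2.53) of the 8169 genes without. Genes with the overlap at an end had a median length of 30.7 kb and 299 H3K4me3 tags at their ends, and genes with H3K4me3 at an end and no H3K9me3 17.0 kb and 176 tags. The second class excludes an H3K9me3 peak anywhere on the gene, which long genes meet more easily, so the rule itself bears on these lengths. Genes with H3K9me3 and no H3K4me3 had a median of 33.3 kb and 18 H3K9me3 tags.

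The strongest H3K9me3 peaks on H3K4me3 at a gene end lay in the double homeobox array and at an Fc receptor gene. Duxf3 (chromosome 10, 58229505 to 58233089), a member of the double homeobox array, had 923 H3K9me3 tags over 4165 bp on an H3K4me3 peak of 641 tags. The neighbouring LOC100504180 had 785 and 734 tags. Fcgr3 (chromosome 1, 171051169 to 171065915), which encodes a low-affinity receptor for the Fc part of IgG and is highly used in macrophages, had 703 H3K9me3 tags over 3414 bp on an H3K4me3 peak of 1253 tags. Nmi, an interferon-induced gene on chromosome 2, had 340 H3K9me3 tags on 200 H3K4me3 tags just outside its lower-coordinate end. Asmt on chromosome X, the last enzyme of melatonin synthesis, had 262 on 276. The cytokine receptor chains Crlf2 and Il3ra had 243 on 172 and 192 on 276. Zfp579 had 207 on 303, Cilp2 264 on 256 and Dact3, an inhibitor of Wnt signalling, 197 on 155. An end is either end of the gene, so an overlap named here need not lie at a start. Tmem267 had 176 on 321, and LOC108167320 167 on 87. All 12 of these H3K9me3 peaks met a peak of the PBS list, as did 97.7% of all H3K9me3 peaks of 101 tags or more on H3K4me3. Over the 2899 genes the share was 43.0% and the median 22 H3K9me3 tags on 276 H3K4me3 tags. How the authors' alignment placed reads that match several copies is not given in the sources used here, so values of near-identical copies are uncertain.

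The regions with both marks that held the most H3K9me3 tags lay away from the ends of protein-coding genes. The first, at chr14:19415347-19419809 and 113.9 kb from the nearest protein-coding gene end, had 3982 H3K4me3 and 4959 H3K9me3 tags, against 4294 and 5269 in the PBS libraries. The region chr17:39842818-39849047, over the ribosomal RNA pseudogene Rn18s-rs5 and the long non-coding RNA gene AY036118, had 3275 and 4328 tags. That of chr13:119595412-119603644, inside Tmem267, had 2415 and 3043, that of chr17:13550398-13553339 had 1638 and 2279, and that of chr2:98666057-98667622 had 1684 and 1775. In these 5 regions the raw tags of each mark were close to their PBS values. The 2 libraries differ somewhat in depth, so raw tags of 1 mark are not set against those of the other. These 5 regions held 3.56% of all H3K9me3 tags in peaks and 0.346% of the H3K4me3 tags. The 50 regions with most H3K9me3 tags held 39956 H3K9me3 and 34931 H3K4me3 tags, 10 of them lay within 1 kb of a gene end, and all 50 met an H3K9me3 peak of the PBS list. Enrichment that an input library would also show at such sites was not tested. Far from any protein-coding gene end, the small region chr14:90911093-90911370, 2102 kb from an end of Pcdh9, had 41 and 42 tags. That of chr11:39205609-39205989, 1473 kb from Mat2b, had 20 and 27.

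The genes with H3K9me3 and no H3K4me3 included tissue-restricted and germline genes. Hic1 on chromosome 11 (75161377 to 75170255), a repressor often methylated in tumours, had 1 peak of 154 tags, and the nearest H3K4me3 peak lay 1355 bp from its end. Nnat (chromosome 2, 157560078 to 157562525) had 2 peaks with 88 tags in 2.45 kb. Ajm1 had 112 tags in 2 peaks, Col11a2, a cartilage collagen, 86 in 1, and the germline-cluster genes Pramel38 and Pramel35 113 and 108. The long genes Itgbl1 (319 kb), Cdh18 (929 kb) and Csmd1 (1643 kb) had 144, 143 and 90 tags in 8, 6 and 6 peaks, which is 0.452, 0.154 and 0.0548 tags per kb of gene. Per kb the order changed: H3f4 had 83.5 tags per kb from a peak of 47 tags. The nearest H3K4me3 peak lay 1010 bp from an end of H3f4, just outside the window of 1 kb. Rbmxl2, a testis RNA-binding protein, had 57.7 tags per kb, Slc25a2 41.6, Gstp3 39.3 and the hair keratin-associated Krtap4-8 36.5.

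The widest H3K4me3 peaks at genes with no H3K9me3 peak on them or within 1 kb reached beyond the genes, and some met H3K9me3 there. This was so for 83 of the 8487 genes of the class (0.978%). At Ndufs8, a subunit of respiratory complex I, the widest peak spanned 8126 bp with 1214 tags and met an H3K9me3 peak of 21 tags off the gene. Nrm, an inner nuclear membrane protein, had a peak of 7252 bp that met 2 H3K9me3 peaks of up to 18 tags, and Daxx, a chaperone of histone H3.3, one of 7231 bp that met a peak of 78 tags and is shared with Tapbp. The other 5 met none. Il4ra had a peak of 7472 bp and 853 tags at its ends, and Tnfrsf1a 7351 bp and 929 tags. A peak of 7273 bp was shared by the neighbours Rxrb, a nuclear receptor, Slc39a7, a zinc transporter, and H2-Ke6.

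The 1630 genes with both marks apart had a median of 19 H3K9me3 tags (quartiles 15 and 32). Those with most H3K9me3 tags among the ones with H3K4me3 at an end were the following. Sfi1 on chromosome 11, a centrosome gene, had 4500 H3K9me3 tags in 5 peaks and 289 H3K4me3 tags at an end. The strongest of its peaks, chr11:3190824-3197249, had 1772 tags and 1260 in the PBS library. Ahnak2 had 1148 tags in a peak of 5379 bp, and Plec, the cytoskeletal linker plectin, 696 in 1 peak. Nrros, which restrains reactive oxygen in phagocytes, had 220, the actin-related Actr3b 192 and Pisd 177.

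Imprinted genes, which are expressed from 1 parental allele, often had both marks on the same site. Of 27 protein-coding imprinted genes, 12 (44.4%, 25.5 to 64.7) had overlapping peaks at a gene end and 6 had them elsewhere on the gene, so that 66.7% had an overlap, against 13.4% at an end and 18.6% anywhere over all protein-coding genes. Among the 20 imprinted genes with H3K4me3 at an end the share with the overlap there was 60%, beside 21.5% over all such genes. The imprinted gene Nnat, which had H3K9me3 and no H3K4me3, was not in this list of 27. The 12 genes rest on 10 H3K9me3 peaks, because Sgce and Peg10 share 1 and Peg3 and Usp29 share 1. Cdkn1c (chromosome 7, 143458339 to 143461059), a growth-restraining cyclin-dependent kinase inhibitor, had 120 H3K9me3 tags over 1245 bp on an H3K4me3 peak of 338 tags. Igf2r, whose promoter is printed above, had 74 on 223, and the potassium channel gene Kcnq1 had 36 on 127. All 3 H3K9me3 peaks were listed in PBS too, as were those of 8 of the 12 genes. Elsewhere on the gene, Gnas, a G protein subunit locus, had 105 H3K9me3 tags in 3 peaks, the growth factor gene Igf2 53 in 2 and the amino acid transporter Slc38a4 35. Snrpn, a splicing gene of the Prader-Willi region, had 102 tags in 6 peaks apart from its H3K4me3. Phlda2, Mkrn3 and Zrsr1 had H3K4me3 alone at an end, with 151, 111 and 65 tags, and 3 of the 27 genes had no peak. Among 6 non-coding imprinted genes, Airn, which runs antisense to Igf2r, had an overlap with 107 H3K9me3 tags in 3 peaks, Kcnq1ot1 had 96 in 3 peaks apart from H3K4me3, Peg13 had H3K4me3 only (64 tags) and H19, Meg3 and Mirg had no peak.

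Hox genes, the transcription factor clusters that set position along the body axis, had the overlap at a gene end in 16 of 39 (41.0%, 25.6 to 57.9), beside 13.4% of all protein-coding genes. Among the 34 Hox genes with H3K4me3 at an end the share was 47.1%, beside 21.5% over all such genes. With annotated starts only, a setting chosen after seeing the data, 11 Hox genes had the overlap. The 16 genes rest on 15 H3K9me3 peaks. Hoxd10 had 91 H3K9me3 tags on an H3K4me3 peak of 162, Hoxa5 and Hoxa6 shared peaks of 52 and 109 tags, Hoxa4 had 51 on 291 and Hoxa11 51 on 187. The H3K9me3 peak was listed in PBS for 6 of these 16 genes, a share near that over all genes of the class. Elsewhere on the gene lay the overlap of Hoxd11, with 134 H3K9me3 tags in 2 peaks, Hoxa3 with 103 and Hoxa10 with 53. H3K4me3 at an end without H3K9me3 was found at 12 members, among them Hoxb7 (404 tags) and Hoxb8 (277). Hoxa9 was the member with H3K9me3 and no H3K4me3, with 33 tags, and the nearest H3K4me3 peak lay 1676 bp from its end.

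Germline genes, which somatic cells keep silent by DNA methylation and H3K9 methylation, were split between the classes. Of 22, 4 had the overlap at a gene end (18.2%, 5.19 to 40.3), an interval that includes the 13.4% of all genes. H3K9me3 and no H3K4me3 was listed at 5 (22.7%, against 2.21% of all genes). Dazl had 121 H3K9me3 tags on 144 H3K4me3 tags, Ddx4 86 on 53, Tex19.1 34 on 42 and the meiotic recombinase gene Dmc1 24 on 93. The H3K9me3 peaks of all 4 were listed in PBS, and their median of 60 H3K9me3 tags on 73 H3K4me3 tags stood beside 22 on 276 over all genes of the class. H3K9me3 without H3K4me3 was found at the piRNA pathway gene Tdrd1 (65 tags in 3 peaks), the synaptonemal complex gene Sycp1 (51 in 3), and Mael, Zfp42 and Tex11. The last 3 had 17, 17 and 14 tags, in a list that starts at 12. No peak was listed at 6 of the 22, among them Stra8 and Piwil1.

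**Figure D3:**
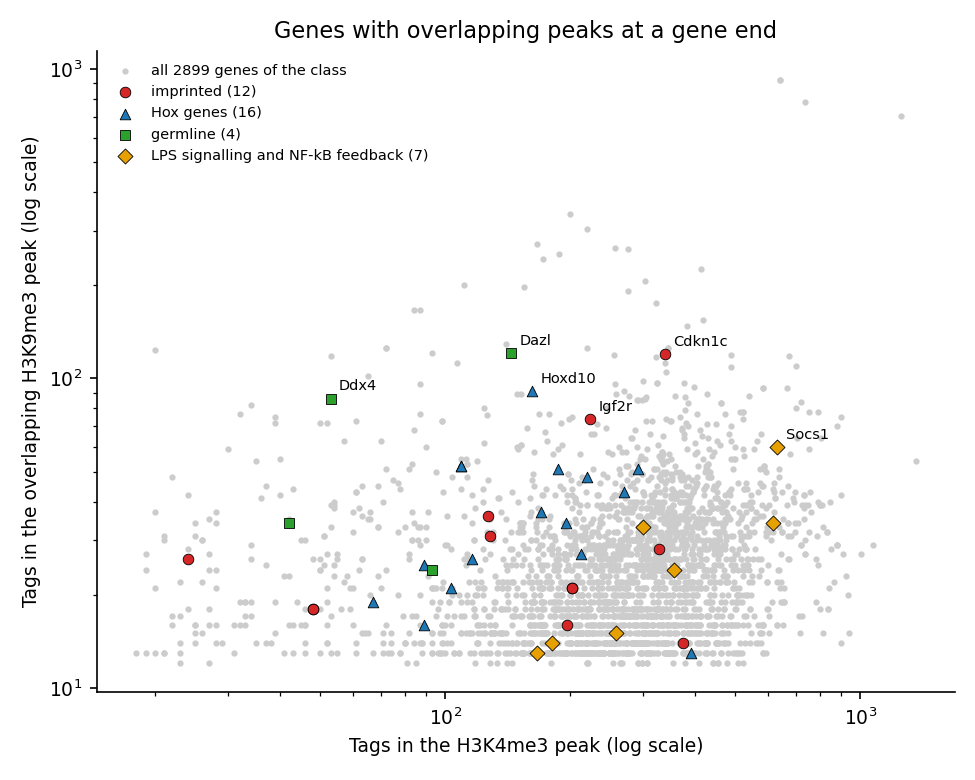
Tags in the H3K4me3 peak (x axis, log scale) and in the strongest overlapping H3K9me3 peak (y axis, log scale) for the 2899 genes with the overlap at a gene end, with members of 4 gene lists in colour. Dazl and Ddx4 lie at 144 and 53 H3K4me3 tags with 121 and 86 H3K9me3 tags, and Socs1 at 631 and 60.

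Most interferon-stimulated genes and most inflammatory mediators had H3K4me3 at an end and no H3K9me3, the class of 39.2% of all genes. Of 37 interferon-stimulated genes, 2 (5.41%, 0.661 to 18.2, beside 13.4% of all genes, which the interval includes) had the overlap at a gene end. These were Xaf1 with 26 H3K9me3 tags and Rtp4 with 16, and 24 had H3K4me3 at an end and no H3K9me3, led by the regulator Irf7 (429 tags), the tetherin gene Bst2 (396) and Parp14 (374). Oasl1, Oas3 and Oasl2, of the antiviral oligoadenylate synthetase family, had H3K9me3 apart from H3K4me3, with 90, 23 and 17 tags. Of 31 inflammatory mediators, 2 had the overlap at an end (6.45%, 0.791 to 21.4), again an interval that includes 13.4%. These were the neutrophil chemokine gene Cxcl1, with 33 H3K9me3 tags on 86, and Ptgs2, the inducible cyclooxygenase, with 15 on 137. Il18, Lif and Nos2, the inducible nitric oxide synthase, had an overlap inside the gene, with 96, 23 and 23 H3K9me3 tags. H3K4me3 alone lay at an end of 17, led by the cytokine gene Il27 (987 tags), Cxcl16 (333) and Il12a (232). No peak of either mark was listed within 1 kb of 7 mediators, among them Tnf, Il1a and Il1b, named after their values were seen. The nearest H3K4me3 peak lay 2776, 1563 and 3177 bp from their ends.

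The signalling and feedback genes of the LPS response had the overlap in 7 of 32 (21.9%, 9.28 to 40.0), against 13.4% of all genes. As 31 of the 32 had H3K4me3 at an end, the share among such genes was 22.6%, beside 21.5% over all genes with H3K4me3 at an end. Socs1 had 60 H3K9me3 tags on 631, Tab2, an adaptor of the kinase TAK1, 34 on 616, and Nfkbia, which encodes the NF-kB inhibitor IkBa, 33 on 300. The H3K9me3 peaks of Tab2 and Nfkbia were listed in PBS and that of Socs1 was not. H3K4me3 alone lay at an end of 20, led by the NF-kB inhibitor Nfkbie (981 tags), the cytokine inhibitor Socs3 (602) and the phosphatase Dusp1 (540). Apart from H3K4me3, Nfkb2 had 33 H3K9me3 tags and the LPS co-receptor Ly96 had 25.

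Of 28 macrophage identity genes, 4 had the overlap at an end (14.3%, 4.03 to 32.7, near the 13.4% of all genes), Fcgr3 and the transcription factor genes Cebpb (28 H3K9me3 tags on 527), Maf (25 on 461) and Cebpa (15 on 937). Runx1, Gata6, the factor of large peritoneal macrophages, and Adgre1, which encodes F4/80, had an overlap elsewhere on the gene, with 124, 64 and 13 H3K9me3 tags on the gene. The lineage factors Irf8 and Spi1 had H3K4me3 alone, with 637 and 542 tags. Of 19 antigen presentation genes, 4 had the overlap at an end (21.1%, 6.05 to 45.6), an interval that includes 13.4%. H2-D1 had 26 H3K9me3 tags, H2-DMa 24, and the divergent pair Tap1 and Psmb9 shared a peak of 20. Tapbp, whose shared peak met H3K9me3 off the gene, H2-K1 and Psmb8 had H3K4me3 alone on the gene, with 1271, 471 and 399 tags. Housekeeping genes, which all cells use, had the overlap in 5 of 23 (21.7%, 7.46 to 43.7, with 13.4% again inside), none with more than the 20 H3K9me3 tags of Rplp0.

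Of the enzymes and partners of the marks themselves, the overlap lay at an end of 4 of 16 genes of H3K4 methylation (interval of the share 7.27% to 52.4%), namely the methyltransferase genes Kmt2a (45 H3K9me3 tags on 582) and Kmt2c (15 on 602) and the demethylase genes Kdm5b (38 on 545) and Kdm1a (12 on 265). It lay at an end of 6 of 24 genes of H3K9 methylation (9.77% to 46.7%), led by Morc2a (32 on 228), which acts with the HUSH silencing complex, Atf7ip, a partner of SETDB1 (30 on 26), and Cbx3, an HP1 protein (30 on 378). Both intervals include the 13.4% of all genes, and among members with H3K4me3 at an end both shares were 28.6%, beside 21.5% over all such genes. The series title names SUN proteins, which join the inner nuclear membrane to the cytoskeleton in the LINC complex. None of 11 SUN and LINC genes had the overlap at an end (0 to 28.5%). Syne3, Syne1, Syne2 and Sun1 had H3K9me3 apart from H3K4me3, with 38, 37, 32 and 12 tags, and Sun5 had an overlap inside the gene with 67 H3K9me3 tags. Sun2 had H3K4me3 alone at an end, with 299 tags. Of 13 nuclear lamina genes, 1 had the overlap, the nuclear pore gene Nup153 (28 H3K9me3 tags on 329).

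Lists of genes of other cell types, wider than the markers above, had intervals that all include the 13.4% of all genes. The overlap lay at an end of 1 of 14 T cell genes, 1 of 12 B cell genes, 1 of 14 mesothelial and fibroblast genes, none of 13 neutrophil genes and none of 13 eosinophil and mast cell genes (0 to 24.7% for each of the last 2). These were the T cell factor Tcf7 (30 H3K9me3 tags on 254), the complement receptor Cr2 (13 on 21) and the mesothelial factor Wt1 (40 on 207). H3K9me3 without H3K4me3 was listed at the T cell receptor-associated Cd5 (17 tags), the neutrophil granule gene Ltf (20) and the matrix gene Dcn (29). Of 25 neuronal genes, which had a median length of 238 kb against 17.3 kb of all genes, 1 had the overlap at an end, Neurog2 (27 on 456). The overlap lay elsewhere in 6 (24%, beside 5.24% of all genes), with 136 H3K9me3 tags at the synaptic scaffold gene Dlgap1 and 105 at the calcium channel gene Cacna1a. H3K9me3 without H3K4me3 was listed at 3 of the 25 (12%, against 2.21% of all genes), Csmd1 and, with 13 tags each, the sodium channel gene Scn1a and Snap25 of the synaptic vesicle machinery.

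**Figure D4:**
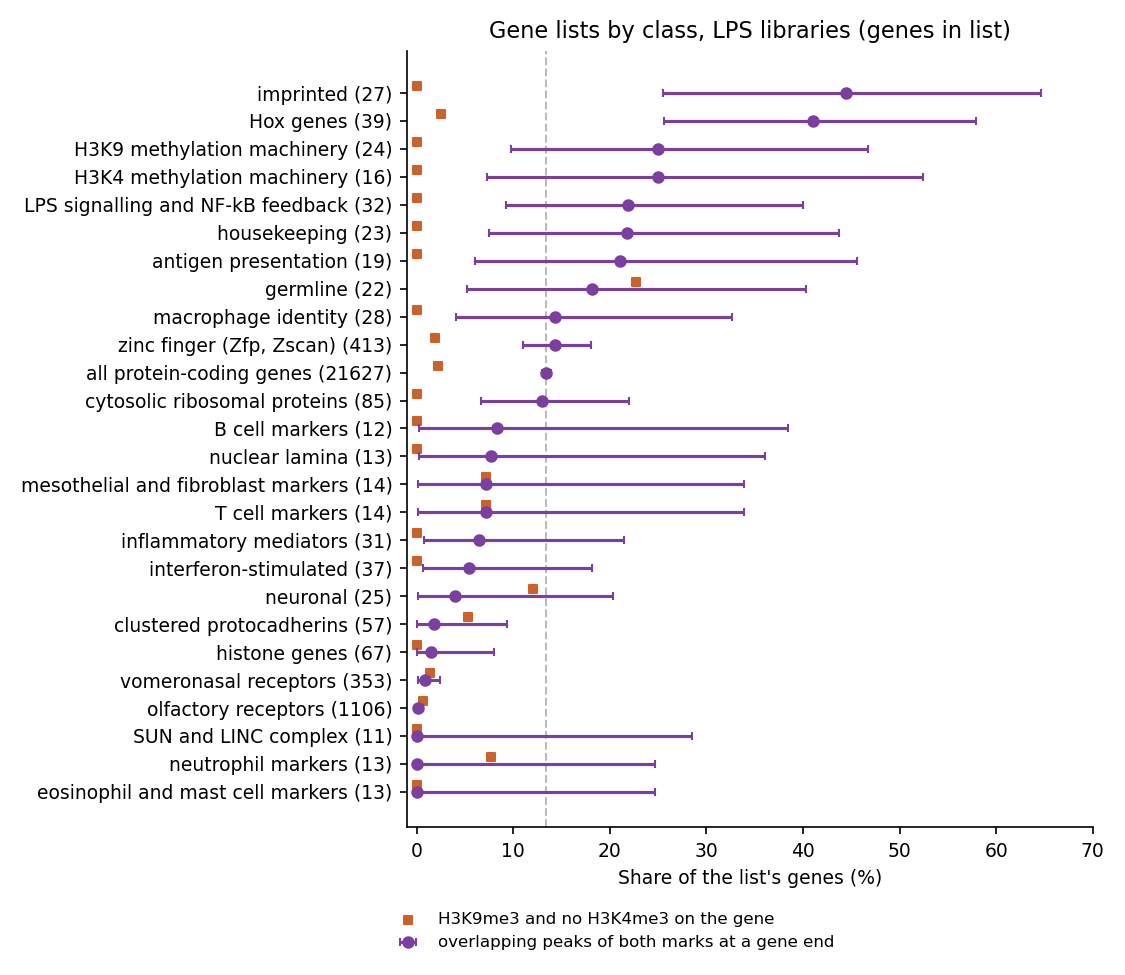
Share of genes with overlapping peaks of both marks at a gene end (purple points, with exact 95% intervals for counting error) and share with H3K9me3 and no H3K4me3 (orange squares) in each gene list, with the number of genes in brackets. The dashed line marks 13.4%, the share over all protein-coding genes, with imprinted genes at 44.4% and Hox genes at 41.0%.

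Promoters of the classes differed in sequence. The table of RefSeq starts held 21044 promoter windows of 300 bases for 17273 of the 21627 protein-coding genes, promoters of chromosome 18 were not analysed here, and each was assigned by the peaks within 1 kb of its start. The 2814 promoters with overlapping peaks of both marks had a median of 28 CpG dinucleotides (quartiles 20 and 37), the 10360 with H3K4me3 only 20 (12 and 27), the 132 with H3K9me3 only 6.5 (3 and 14.2), the 7720 with no peak 3 (1 and 6), and all windows 13. Sharing differed with H3K4me3 tags and rose from 60 to 119 tags upwards, so the CpG counts were also set side by side at like tags. At 17 to 59 tags the medians were close, 12 with both marks (87 promoters) and 11 with H3K4me3 only (1194). They were 19 and 17 at 60 to 119 tags, 25 and 21 at 120 to 239, 30 and 24 at 240 to 479, and 34 and 24 at 480 tags or more. The median share of G and C was 67.3% with both marks and 60.7% with H3K4me3 only. Libraries can differ in how well they recover sequence rich in G and C, and the part of this was not tested. The letters GGGCGG, the core of the GC box, were found on either strand in 78.4% of promoters with both marks (76.9 to 79.9), 63.5% with H3K4me3 only, 24.2% with H3K9me3 only, 12.9% with no peak and 46.7% of all. The letters TATAAA were found on either strand in 5.26%, 6.61%, 16.7%, 23.4% and 12.7%. Such a match is a description and not a binding site. Of the promoters printed above, Hic1 and Nnat, with 29 and 17 CpG, lie above the upper quartile of their class and so are not typical of it. Tnfrsf1a, with 11, lies below the lower quartile of its own. Socs1, with 18, lies below the lower quartile of promoters with both marks.

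The summits of the marks, the positions with most tags in a peak, lay close together. Across 5839 overlapping pairs the median distance between them was 89 bp (quartiles 32 and 241), and 63.2% were within 150 bp, about the length of DNA on a nucleosome. The caller's modelled fragment length was 149 bp for H3K4me3 and 71 bp for H3K9me3, and its part in these distances was not tested. Relative to annotated starts within 1 kb, the summits of H3K4me3 peaks with H3K9me3 had a median position 264 bp downstream (139 and 398) and those of H3K9me3 peaks with H3K4me3 269 bp downstream (116 and 436). H3K4me3 peaks without H3K9me3 had theirs 183 bp downstream (82 and 319). The 92 H3K9me3 summits without H3K4me3 had a median of 110 bp downstream (-70.5 and 338), with 33.7% of them upstream of the start, against 15.7% of those with H3K4me3.

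**Figure D5:**
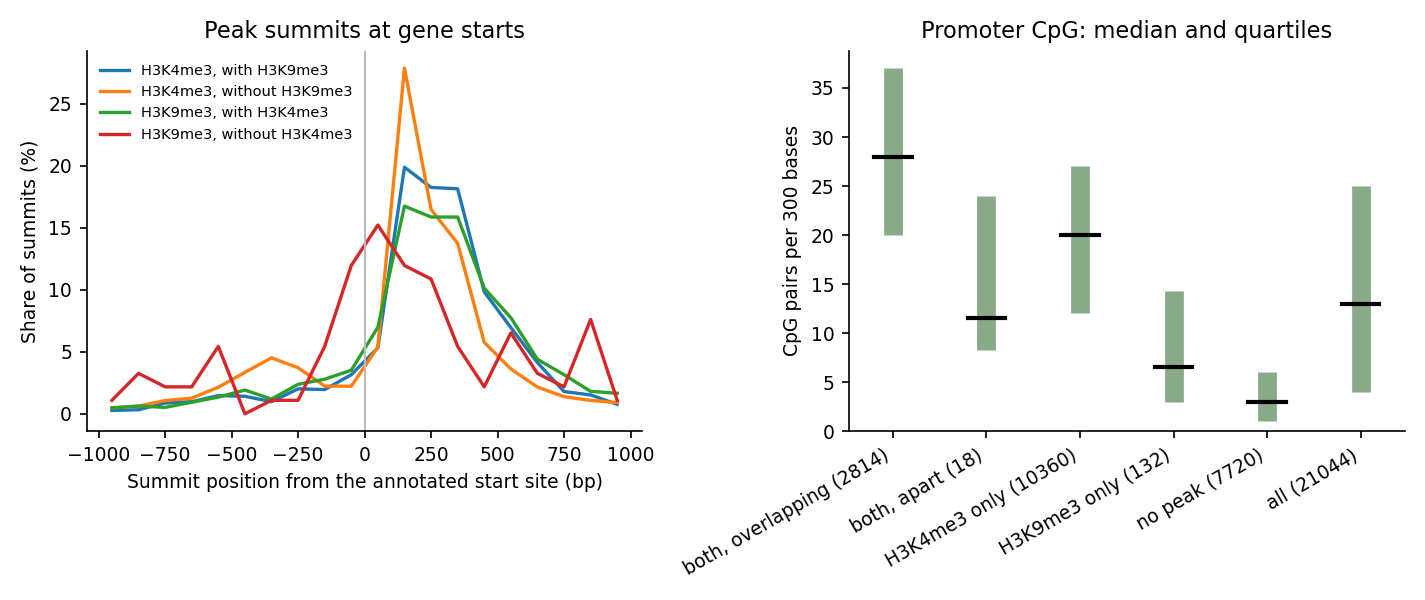
Left, share of peak summits in bins of distance from an annotated start site (bp, negative is upstream) for peaks of each mark with and without the other mark; right, CpG dinucleotides per 300 bases of promoter by class (bar from lower to upper quartile, black line at the median, number of promoters in brackets). The median was 28 CpG with overlapping marks and 20 with H3K4me3 only, and summits of both marks at shared peaks lay 264 and 269 bp downstream of the start.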

How the data were processed

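Chromatin immunoprecipitation sequencing of H3K4me3 and H3K9me3 was analysed, with 1 library for each mark in LPS and in PBS. Tools listed in the submitters' processing notes are MACS 1.4.2, Bowtie 0.12.8, CASAVA 1.4 and DiffBind, with the build mm10. Peaks were called by MACS for each library on its own, without a control, with a p cutoff of 1e-05 and at most 1 tag per position, per the file headers. Per the file headers, each deposited table gives the count of tags in a peak and its width and summit. The deposited score is minus 10 times the base 10 logarithm of the peak's p-value, and the fold enrichment, the authors' ratio of a peak to its local background, was not used.

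From these, overlaps of at least 1 bp were computed on chromosomes 1 to 19 and X (Python 3.11.15, pandas 2.3.3, SciPy 1.17.1), checked on simulated peaks and against bedtools 2.31.1. Left out were 27 H3K4me3 and 81 H3K9me3 peaks on other sequences. Genes were the 21627 protein-coding genes of a RefSeq table of GRCm38.p6 (mm10), which gives ends but no strand. A gene counted as marked by a peak on it or within 1 kb, and at an end by a peak within 1 kb of either end. Genes that share an end can share a peak. Gene lists (25) were matched by symbol, with older symbols where unambiguous, and 11 names were not matched to a protein-coding gene. At this depth the listed peaks start at 17 (H3K4me3) and 12 (H3K9me3) tags. The members and lists were chosen with earlier results of these data known. Named genes are those with most tags or the widest peaks in each class, up to 3 per class for a list, without symbols of the form Gm and a number or ending in Rik, and some further members were named after their values were seen. Alternatives covered the overlap rule, the score, the windows and the gene table.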

Additional observations from a re-analysis of the deposited data

How the results depend on the processing

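Of 50 recomputed values, 19 stayed within the counting interval of the reported value or, for counts of genes and regions, within 1.5 times it. Requiring a score of 100 or more left 16733 H3K4me3 and 2920 H3K9me3 peaks, of which 8.66% and 50.9% met the other mark. With a gap of up to 1 kb allowed, the shares were 20.6% and 36.0%. At the stricter score, 847 genes had the overlap at an end (3.92% of all) and 140 had H3K9me3 without H3K4me3. Median widths and tags there were 1586 bp and 255 for H3K4me3 peaks with H3K9me3, 1359 bp and 151 without, 492 bp and 42 for H3K9me3 peaks with H3K4me3, and 422 bp and 34 without, in the reported order. Using all genes of the table, the median distances to a gene end were 28 and 515 bp for H3K4me3 peaks with and without H3K9me3 (309 and 2287 reported) and 661 and 13127 bp for H3K9me3 peaks with and without H3K4me3 (1080 and 33471 reported). From the summit they were 1248, 2900 and 1290 bp for the first 3. Chosen after seeing the data, the stricter score gave 15284 regions with H3K4me3 only, 1449 with both and 1435 with H3K9me3 only, and the overlap at an end for 5 imprinted (18.5%) and 5 Hox genes (12.8%). It gave 30, 22 and 9 CpG for promoters with both marks, H3K4me3 only and H3K9me3 only, and 77.9% and 72.3% of H3K9me3 peaks with and without H3K4me3 met the PBS list. The cause of these differences was not tested beyond the fewer peaks that the score leaves. No paired analysis was possible because each mark and treatment had 1 library and the result comes from no test. The H3K9me3 peaks had a median of 17 tags and a minimum of 12.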

Other observations

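H3K9me3 without H3K4me3 was dense in a few clusters of duplicated genes. Over bins of 500 kb with any such region, the median was 2 regions and the highest 39, in the bin of chromosome 4 from 147000001 to 147500000, which holds the zinc finger genes Zfp978, Zfp991, Zfp988 and Zfp982 and also 27 regions with H3K4me3. Zfp978 had 36 H3K9me3 peaks with 2124 tags and an overlap at an end of 89 H3K9me3 tags on 149. Zfp993, in the neighbouring bin, had 39 H3K9me3 peaks with 1435 tags over a gene of 479 kb. The next densest bin, chromosome 1 from 85000001 to 85500000, held 33 regions, and the neighbouring bin 16, among them a peak of 714 tags in Sp110 and Sp140, which encode chromatin readers of the Sp100 family. Zinc finger genes as a family had both marks apart in 20.8% of 413, beside 7.54% of all genes, and the overlap at an end in 14.3%.

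Sensory receptor genes were mostly without peaks: 98.7% of 1106 olfactory and 96.9% of 353 vomeronasal receptor genes had none, beside 28.3% of all protein-coding genes. Vmn2r2 had 118 H3K9me3 tags on an H3K4me3 peak of 53 tags. Histone genes had the overlap at an end in 1 of 67 (1.49%, beside 13.4% of all genes), H1f10, with 34 H3K9me3 tags on 441. Cytosolic ribosomal protein genes had it in 11 of 85 (12.9%, near the share of all genes), led by Rpl10a with 30 on 516. Clustered protocadherin genes had it in 1 of 57 (1.75%). An overlap elsewhere was found in 16 of them (28.1%, beside 5.24% of all genes), in transcripts that share their last exons and so their peaks. Their median length was 90.3 kb, against 17.3 kb over all protein-coding genes.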
